A study of Homo sapiens with 6 samples.

Results

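C/D box small nucleolar RNAs (snoRNAs) are short noncoding RNAs named for a pair of sequence boxes near their ends. Genes were taken by symbol, SNORD followed by a digit, where a probe carried that symbol alone. This gave 115 genes among the 18417 genes with a single-symbol probe. Each of the 115 had 1 probe, so the choice of the brightest probe per gene decided nothing, and the symbol rule used no measured value. The rule was, however, set with earlier results of these data known. The cells were H441, an established human lung adenocarcinoma line. Cells received a SMARTpool siRNA against ETS2 (3 arrays) or a scrambled control siRNA (3 arrays) by lipid transfection, and total RNA was isolated after 48 h. Each array came from its own transfection of the same line according to the series' design, so p-values measure the spread between transfections. Levels are RMA values on the log2 scale, where 1 unit is a doubling, and differences are ETS2 siRNA minus control siRNA. A gene is called changed at a Benjamini-Hochberg adjusted p under 0.05 in limma across all genes.

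Most vertebrate C/D snoRNAs are cut from introns of a host gene after splicing, while U3, U8 and U13 have promoters of their own. They assemble with the proteins SNU13, NOP56, NOP58 and fibrillarin (FBL), and base-pair with ribosomal RNA to place ribose methyl groups on it. A few take part in cleavage of the ribosomal precursor, and those of the imprinted clusters on chromosomes 14 and 15 have no established ribosomal target. GAS5, SNHG1 and SNHG5 are spliced long noncoding RNAs known mainly as hosts of snoRNAs.

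ETS2, the siRNA's target and a transcription factor of the ETS family, read 8.87, 8.70 and 8.78 after ETS2 siRNA, against 9.79, 9.91 and 9.79 in control cells. The difference was -1.05 (SE 0.0565, adjusted p = 0.000254), which leaves 48.4% of the control level. Over all genes 904 changed (4.91%), 420 higher (2.28%) and 484 lower (2.63%). Median levels over all genes lay between 8.07 and 8.10 on the 6 arrays. The adenocarcinoma list had 9 of 10 measured markers above background, the floor being a log2 value of 6.67, the 95th percentile of 341 olfactory receptor genes. SFTPC was its member below the floor, while NKX2-1 and NAPSA lay above. The summed log2 level of that list ran from 116.8 to 116.9 after ETS2 siRNA and from 117.4 to 117.6 in control cells, and SFTPB was its 1 changed member (-0.36). Of the markers of other cell types, 2 of 5 leukocyte markers (CD68 and CD14), 4 of 6 fibroblast markers (COL1A1, COL1A2, LUM and PDGFRB) and 1 of 5 endothelial markers (KDR) lay above the floor. PTPRC, CD3E, LYZ, DCN, FAP, PECAM1, VWF, CDH5 and TEK did not, and no measured marker of those 3 lists changed.

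Of the 115 C/D snoRNA genes, 3 changed, all lower after ETS2 siRNA, and the 3 lie in introns of 1 host gene, GAS5. They were SNORD44, SNORD78 and SNORD79. That is 2.61% of the members, below the 4.91% of all genes that changed. At an unadjusted p under 0.05 there were 13 members (11.3%), against 18.5% of all genes. The median difference over the 115 was -0.04, beside 0.00 over all genes, with 79 negative, 31 positive and 5 at 0. The negative share was 68.7%, against 47.2% of all genes. The 108 members outside GAS5 had 0 calls by limma and 8 at an unadjusted p under 0.05 (7.41%), with a median of -0.04. Without ETS2 siRNA replicate 1 no member was called (adjusted p = 0.0659 for SNORD44, 0.0513 for SNORD78 and 0.0663 for SNORD79), and the median over the 115 was -0.02.

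Promoter windows are shown for 3 noncoding hosts with more than 1 measured member. They were chosen because 3 of the 7 measured members of GAS5 were called, while those of SNHG1 and SNHG5 were not. SNHG1 and SNHG5 had only 2 measured members each, and 4.91% of all genes were called, so their 0 calls do not set them apart. The difference between these hosts was not tested. SNHG16, a further noncoding host with 2 measured members, neither called (0.05 and 0.06), is not shown, nor are the imprinted hosts. Each window runs from 250 bases before to 50 after the annotated gene start in RefSeq, build GRCh38.p14, and all lie on the minus strand. GAS5 spans chr1:173868996-173869295, SNHG1 spans chr11:62855836-62856135 and SNHG5 spans chr6:85678684-85678983. Capitals mark GGAA or its reverse complement TTCC, the core that ETS factors recognise.
GAS5: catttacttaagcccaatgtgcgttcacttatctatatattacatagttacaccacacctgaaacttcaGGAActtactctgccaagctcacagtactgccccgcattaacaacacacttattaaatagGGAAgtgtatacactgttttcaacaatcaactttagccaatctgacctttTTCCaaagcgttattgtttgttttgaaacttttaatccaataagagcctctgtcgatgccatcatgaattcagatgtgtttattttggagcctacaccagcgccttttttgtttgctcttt
SNHG1: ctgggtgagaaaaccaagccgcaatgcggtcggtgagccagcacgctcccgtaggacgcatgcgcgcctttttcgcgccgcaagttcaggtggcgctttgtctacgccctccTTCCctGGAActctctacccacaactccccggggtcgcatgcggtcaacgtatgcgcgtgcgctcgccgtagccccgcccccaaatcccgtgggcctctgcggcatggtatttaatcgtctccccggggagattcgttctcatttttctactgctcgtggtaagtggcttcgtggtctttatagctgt
SNHG5: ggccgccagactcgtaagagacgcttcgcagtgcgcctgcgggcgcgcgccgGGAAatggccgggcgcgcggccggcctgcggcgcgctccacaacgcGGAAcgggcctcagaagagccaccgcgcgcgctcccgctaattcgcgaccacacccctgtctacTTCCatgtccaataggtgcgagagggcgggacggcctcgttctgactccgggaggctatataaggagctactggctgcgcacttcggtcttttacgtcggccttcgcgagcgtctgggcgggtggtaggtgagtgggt
The core occurs 3 times in the GAS5 window, 2 times in that of SNHG1 and 3 times in that of SNHG5. It is found in 95.5% of 35116 windows of this length, with a median of 3 matches, so the counts sit at or next to that median. The longer motif CCGGAAGT, searched on both strands and containing the core, was in 0 of the 3 windows and in 4.14% of all. The windows differ in base composition, with 37.7% G and C for GAS5, 60.0% for SNHG1 and 67.7% for SNHG5. A match describes letters and shows no binding. The snoRNA sequences themselves are not used here.

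GAS5 holds 7 of the measured members, all of them known guides of ribosomal RNA methylation. SNORD44, often used as a reference RNA in small RNA assays, read 10.70, 10.72 and 10.83 after ETS2 siRNA and 11.08, 11.09 and 10.98 in control cells. Every ETS2 siRNA array lay below every control array. Its difference was -0.30 (95% interval -0.42 to -0.18, SE 0.0513, adjusted p = 0.0169), or 81.2% of control.

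SNORD78 read 10.65, 10.63 and 10.74 after ETS2 siRNA and 10.96, 11.03 and 10.94 in control cells. The groups were again apart, with a difference of -0.30 (95% interval -0.41 to -0.20, SE 0.0464, adjusted p = 0.0116). SNORD79 read 9.30, 9.50 and 9.47 after ETS2 siRNA and 9.82, 9.73 and 9.68 in control cells, also without overlap. Its difference was -0.32 (95% interval -0.46 to -0.18, SE 0.0629, adjusted p = 0.0282), with replicate 1 the lowest ETS2 siRNA array. SNORD79 lost its call with any of the 6 arrays left out, with adjusted p between 0.0573 and 0.0924. SNORD78 lost it without ETS2 siRNA replicates 1 or 2 (0.0513 and 0.0587), and SNORD44 without either of these or control replicate 1 (0.0647 to 0.0762).

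The other 4 members of GAS5 had negative differences that did not pass. SNORD77 read 6.62, 7.01 and 6.71 after ETS2 siRNA and 7.21, 7.07 and 7.31 in control cells, a difference of -0.42 (SE 0.102, adjusted p = 0.0613) with the groups apart. This is the most negative difference of all 115 members, on a probe close to background. SNORD75 read 10.25, 10.34 and 10.39 after ETS2 siRNA and 10.48, 10.46 and 10.46 in control cells, again apart (-0.14, adjusted p = 0.138). SNORD81 read 9.68, 10.04 and 10.05 after ETS2 siRNA and 10.04, 10.02 and 10.16 in control cells. Replicate 1 of the ETS2 siRNA group was the low array and the groups overlapped (-0.15, SE 0.0972, adjusted p = 0.496).

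SNORD74 was the member of GAS5 with the smallest difference, at 11.74, 11.79 and 11.82 after ETS2 siRNA and 11.82, 11.78 and 11.85 in control cells (-0.03, 95% interval -0.13 to 0.06). The intervals of SNORD44, SNORD77, SNORD78 and SNORD79 lie wholly below that of SNORD74, although the difference between these members was not tested. Differences within this host therefore ran from -0.42 to -0.03, with a median of -0.30.

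**Figure D1:**
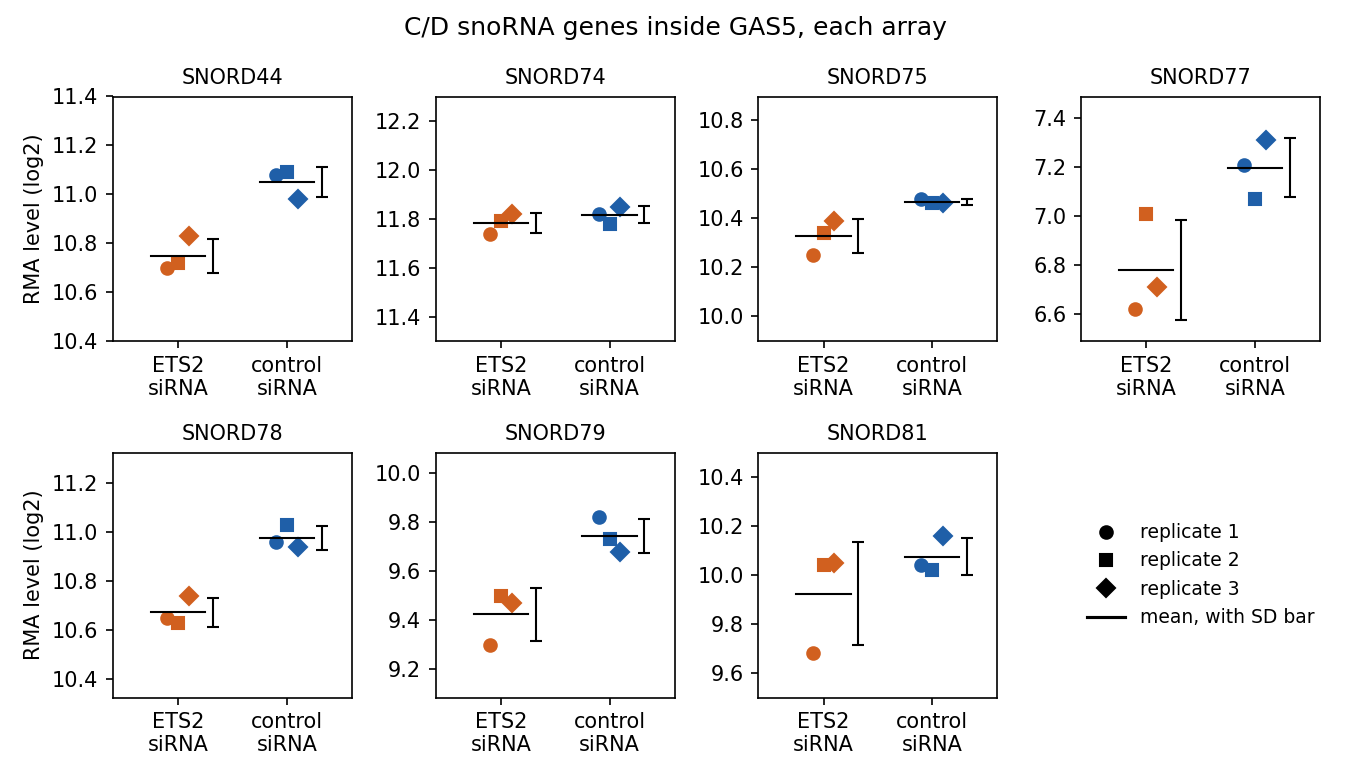
RMA log2 levels of the 7 C/D snoRNA genes inside GAS5 on each array (points, shape by replicate), with group means (lines) and SDs (bars), ETS2 siRNA left of control siRNA, each panel spanning 1 log2 unit. SNORD44, SNORD75, SNORD77, SNORD78 and SNORD79 show no overlap between groups, while SNORD74 and SNORD81 overlap.

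No single-symbol probe read GAS5 itself, so its own level is not given here. A further 3 probes list GAS5 together with a snoRNA, and they were fitted with all 33297 probes of the table. The probe for GAS5 and SNORD47 read 10.13, 10.43 and 10.44 after ETS2 siRNA and 10.71, 10.52 and 10.67 in control cells (-0.30, adjusted p = 0.234). The probe for GAS5 and SNORD80 differed by -0.14 (adjusted p = 0.165), and that for GAS5 and SNORD76 by -0.14 (adjusted p = 0.361). None of the 3 was called, against 1.2% of all probes (0.688% lower). The groups did not overlap on these 3 probes, and 10.2% of all probes were likewise lower without overlap. Fewer copies of the mature snoRNA and less unspliced host RNA cannot be told apart on these probes. The same holds for the single-symbol probes of the 7 members inside GAS5.

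Groups did not overlap for 18 of the 115 members (15.7%), against 23.1% of all genes. Of these, 15 were lower after ETS2 siRNA (13% of members, 11.5% of all genes) and 3 were higher. Among the 64 members above the floor in at least 1 group, 48 had negative and 14 positive differences. The negative share was 75%, against 46.8% of all genes above the floor. Array 1 of the ETS2 siRNA group was the lowest of its group for 60 of 115 members (52.2%), against 30.5% of all genes. Within GAS5 it was the lowest for 6 of 7 members. In the control group the share lowest on 1 array ran from 23.5% to 40.9% of members, against 24.9% to 35.3% of all genes. The part of that array in the members' median was not tested beyond leaving it out, as above.

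**Figure D2:**
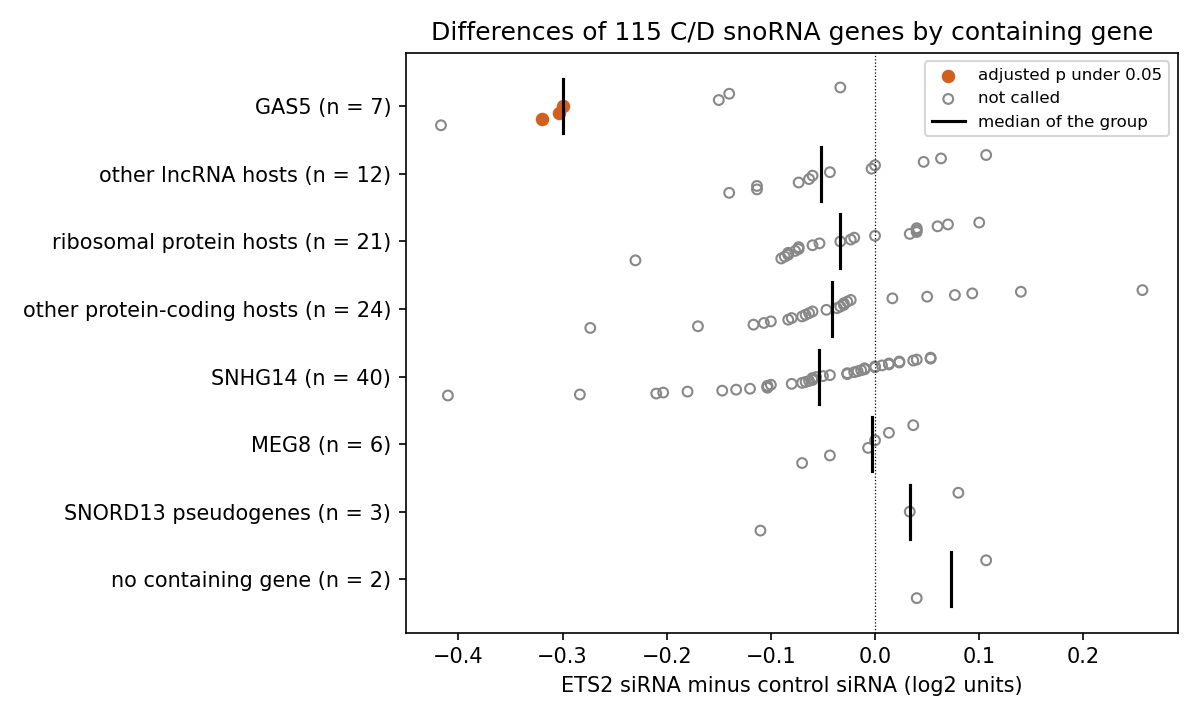
Log2 difference, ETS2 siRNA minus control siRNA, of each of the 115 C/D snoRNA genes, grouped by the gene that contains them, with the group medians as vertical lines and called genes filled. The 3 called genes are in the GAS5 row, whose median is -0.30, while the medians of the other rows run from -0.05 to 0.07.

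Ribosomal protein genes contain 21 members, of which 0 were called, with 13 negative, 7 positive and a median difference of -0.03. RPL13A, which encodes a protein of the large ribosomal subunit, holds SNORD32A, SNORD33, SNORD34 and SNORD35A, described in rodent and human cells as mediators of lipid-induced stress. SNORD33 read 12.32, 12.30 and 12.24 after ETS2 siRNA and 12.13, 12.24 and 12.31 in control cells, with full overlap (0.06, adjusted p = 0.636). SNORD32A and SNORD35A differed by 0.04 and 0.07, and SNORD34 by -0.09, all with overlapping groups.

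In RPL23A, SNORD4A, SNORD4B and SNORD42A had differences between -0.08 and -0.05. In RPL3, SNORD43 (-0.08) and SNORD83A (0.10) pointed in opposite directions, and neither passed.

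Long noncoding hosts other than GAS5 and the imprinted clusters contain 12 members, of which 8 were negative and 3 positive, with a median of -0.05 and 0 calls. SNORD28 and SNORD30 of SNHG1 differed by -0.11 and -0.06. A further 6 probes list SNHG1 together with a snoRNA, and their differences ran from -0.30 to -0.02 with overlapping groups and 0 calls over all probes. The probe for SNHG1 and SNORD25 read 9.33, 9.60 and 9.75 after ETS2 siRNA and 9.70, 9.97 and 9.91 in control cells (-0.30, SE 0.119, adjusted p = 0.339), a difference as large as that of the probe for GAS5 and SNORD47. SNORD28 read 10.64, 10.87 and 10.87 after ETS2 siRNA and 10.93, 10.91 and 10.88 in control cells, narrowly without overlap (adjusted p = 0.425). SNORD50A and SNORD50B of SNHG5 differed by -0.06 and -0.14. SNORD50B read 8.07, 8.23 and 8.26 after ETS2 siRNA and 8.35, 8.34 and 8.29 in control cells, apart but not called (adjusted p = 0.223). SNORD104 of SNHG25 was among the more positive members, at 9.71, 9.85 and 9.83 after ETS2 siRNA and 9.67, 9.66 and 9.74 in control cells (0.11, adjusted p = 0.308).

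Other protein-coding genes contain 24 members, of which 18 were negative and 6 positive, with a median of -0.04 and 0 calls. RABGGTB, a subunit of the enzyme that attaches lipids to RAB proteins, holds the SNORD45 family. SNORD45A, SNORD45B and SNORD45C differed by -0.10, -0.08 and -0.12, and RABGGTB itself by -0.12 (adjusted p = 0.180). SNORD45A read 10.96, 11.08 and 11.08 after ETS2 siRNA and 11.23, 10.97 and 11.22 in control cells, with overlap. SNORD59B of ATP5F1B, an ATP synthase subunit, had a difference of -0.27 (SE 0.140, adjusted p = 0.362), and its control arrays spread widely, at 6.71, 7.35 and 6.92, against 6.65, 6.80 and 6.71 after ETS2 siRNA.

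SNORD61 of RBMX had the most positive difference of all members, with groups that did not overlap, at 5.44, 5.78 and 5.58 after ETS2 siRNA and 5.30, 5.42 and 5.31 in control cells (0.26, adjusted p = 0.132). Both its group means lay below the floor. With array weights it was called higher (0.32, adjusted p = 0.0462). SNORD8 of the chromatin remodeller CHD8 had the most positive difference above the floor (0.14, SE 0.126, adjusted p = 0.642), smaller than its replicate spread. SNORD41 of TNPO2 (0.08), SNORD57 of NOP56 (-0.04) and SNORD14C and SNORD14E of HSPA8 (-0.06 and -0.02) also had overlapping groups. SNORD14 is the U14 family, which takes part in cleavage of the ribosomal precursor.

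The imprinted region of chromosome 15 gave the largest number families, SNORD115 and SNORD116, both inside the noncoding transcript SNHG14. SNORD115, a family known from neurons, had 20 measured copies, all 20 below the floor, with mean levels from 3.62 to 4.74. Its differences ran from -0.12 to 0.05 with a median of -0.01, and 0 copies were called. The brightest copy, SNORD115-32, read 4.70, 4.82 and 4.53 after ETS2 siRNA and 4.66, 4.91 and 4.79 in control cells.

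SNORD116, the family lost in Prader-Willi syndrome, also had 20 measured copies, of which 9 lay above the floor. Of its differences 19 were negative and 1 was 0, with a median of -0.09 and 0 calls. At an unadjusted p under 0.05 there were 3 of 20, beside 18.5% of all genes. SNORD116-15 read 12.52, 12.56 and 12.51 after ETS2 siRNA and 12.64, 12.51 and 12.63 in control cells, with overlap (-0.06, adjusted p = 0.558). SNORD116-14 differed by -0.10 and SNORD116-6 by -0.21 (SE 0.140, adjusted p = 0.509). The largest difference in the family was that of SNORD116-21, at 6.18, 6.30 and 6.08 after ETS2 siRNA and 6.27, 6.63 and 6.89 in control cells (-0.41, SE 0.138, adjusted p = 0.151), below the floor and with overlap. It was called without control replicate 1 (-0.57, adjusted p = 0.0337) and with an intensity trend (adjusted p = 0.0378). Copies of this family are close in sequence, so their probes may share targets and their common sign does not count as independent readings. The family's median level on each array ran from 6.35 to 6.50 after ETS2 siRNA and from 6.60 to 6.68 in control cells. These medians lay close to or below the floor. Further probes list several copies of the family, or copies beside the gene SNRPN, and all lay above the floor. Their differences ran from -0.05 to 0.01, at mean levels from 6.82 to 11.59, with overlapping groups and 0 calls over all probes. The part of the dim copies in the family's median was not tested.

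The imprinted cluster of chromosome 14 gave 2 copies of SNORD113 and 4 of SNORD114 inside MEG8. All 6 lay below the floor with overlapping groups, and their differences ran from -0.07 to 0.04. SNORD114-26, the brightest, read 4.70, 4.76 and 4.65 after ETS2 siRNA and 4.90, 4.69 and 4.73 in control cells.

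**Figure D3:**
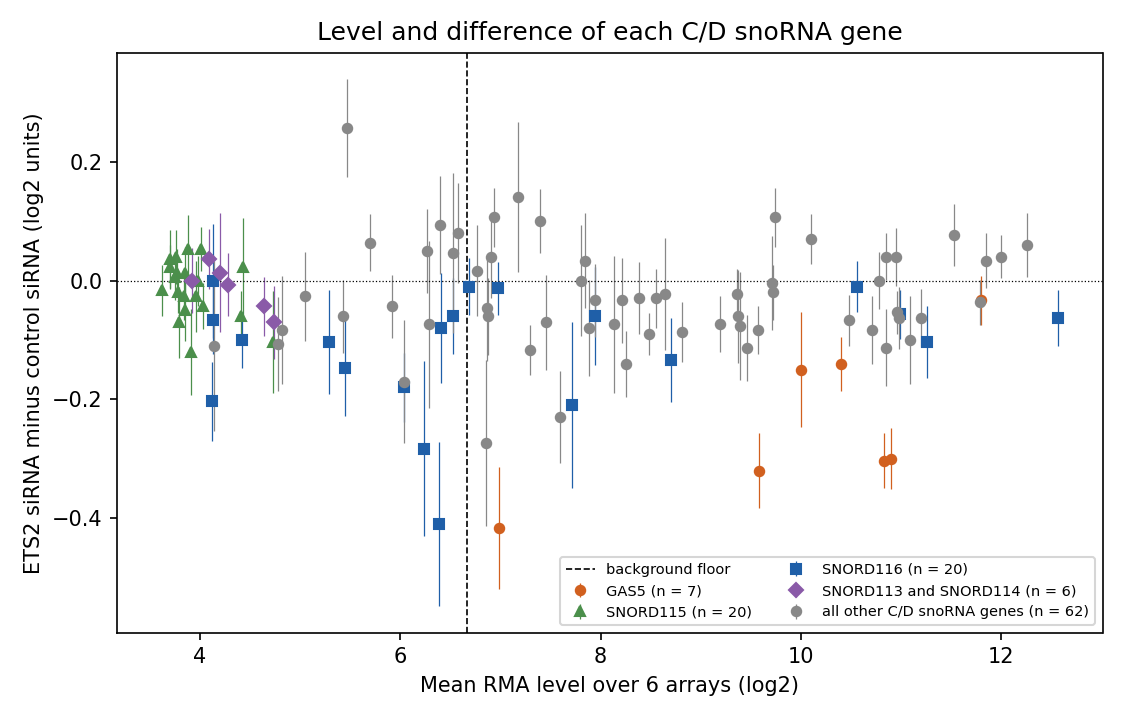
Mean RMA log2 level over 6 arrays (x) against the log2 difference, ETS2 siRNA minus control siRNA, with its standard error (y) for each C/D snoRNA gene, by host or number family. All 20 SNORD115 copies and all 6 copies of SNORD113 and SNORD114 lie left of the floor at 6.67, and the GAS5 members lie right of it.

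Of the independently transcribed C/D snoRNAs, SNORD13 (U13), which guides acetylation of the small subunit RNA, had a probe of its own. It read 12.00, 12.03 and 12.01 after ETS2 siRNA and 11.96, 11.97 and 11.99 in control cells. The groups did not overlap, but the difference of 0.04 (95% interval -0.04 to 0.12, adjusted p = 0.640) was not called. The pseudogene SNORD13P3, which may share probe targets with SNORD13, differed by 0.03. The 5 gene copies of U3, which acts in cleavage of the ribosomal precursor, share their probes, and those read a difference of 0.09 (SE 0.0646, adjusted p = 0.627 over all probes). U8 was not among the 115 members. SNORD32B, which like SNORD13 had no containing gene, differed by 0.11 (adjusted p = 0.310) with overlapping groups.

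Of the 43 genes that contain a member, 25 had a level of their own and 1 of these changed, against 4.91% of all genes. That gene was WDR43, a ribosome biogenesis factor, which read 11.27, 11.22 and 11.26 after ETS2 siRNA and 11.51, 11.50 and 11.52 in control cells (-0.26, SE 0.0368, adjusted p = 0.00864). Its call was lost without ETS2 siRNA replicate 2 or 3 (adjusted p = 0.0510 and 0.0502). The snoRNA in its intron, SNORD53, differed by -0.03 (SE 0.0496, adjusted p = 0.829), with 8.53, 8.55 and 8.53 after ETS2 siRNA and 8.66, 8.49 and 8.55 in control cells. Of those 25, 3 contain SNORD13 pseudogenes. Across the 32 other snoRNA genes with a measured containing gene, 22 such genes in all, the differences of the pairs had Pearson's r = 0.32 and Spearman's rho = 0.45, with the same sign in 22 of 32 pairs. Pairs from 1 host share its value and all pairs share the same 6 arrays, so this is a description.

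**Figure D4:**
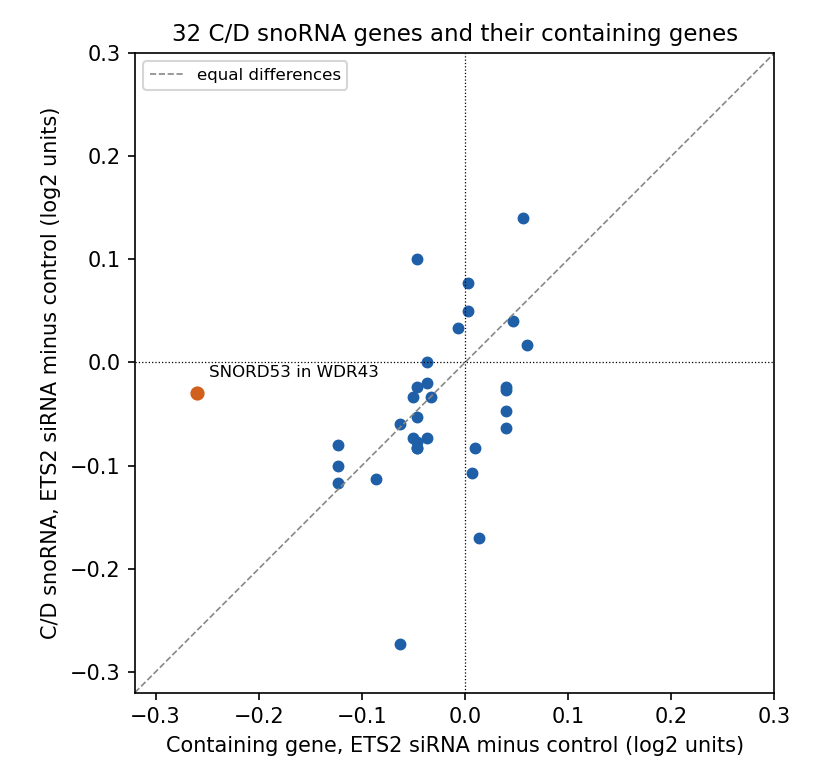
Log2 difference, ETS2 siRNA minus control siRNA, of 32 C/D snoRNA genes (y) against that of the gene containing each (x), 1 point per snoRNA gene, with the line of equal differences. SNORD53 lies at -0.03 with its host WDR43 at -0.26, and GAS5 is not plotted because its own level is not given here.

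Of the proteins that bind, assemble or process C/D snoRNAs, 33 were measured and 2 changed (against 4.91% of all genes). Core proteins were not called, with FBL, the methyltransferase, at -0.05 (adjusted p = 0.509), NOP58 at 0.04 (adjusted p = 0.691) and RRP9, a U3 protein, at -0.01. NOP56 and SNU13 had no single-symbol probe. The assembly list had 0 of 10 called, with a median of 0.02 and 0 at an unadjusted p under 0.05. PHAX, an adaptor that carries capped U3 and spliceosomal RNAs, rose by 0.21, reading 9.54, 9.66 and 9.66 after ETS2 siRNA and 9.42, 9.39 and 9.42 in control cells (SE 0.0454, adjusted p = 0.0393). XRN1, the cytoplasmic exonuclease that degrades decapped RNA, fell by 0.23, reading 9.48, 9.49 and 9.44 after ETS2 siRNA and 9.66, 9.78 and 9.66 in control cells (SE 0.0461, adjusted p = 0.0302). With 1 array left out, PHAX kept its call without ETS2 siRNA replicate 1 and lost it in the other cases (adjusted p up to 0.156). XRN1 kept its call without control replicate 2 and lost it in the other cases (adjusted p up to 0.129). Of 14 polymerase I and pre-ribosomal factors, WDR43 alone changed (against 4.91% of all genes), with a list median of 0.06. It is the same call as that among the containing genes.

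H/ACA snoRNAs, which guide pseudouridylation, and scaRNAs were taken by the symbols SNORA and SCARNA, and the scaRNAs were not sorted by box type. Of these 77 genes, 0 were called by limma, against 4.91% of all genes, and 11 had an unadjusted p under 0.05 (14.3%, against 18.5%). Their median difference was 0.02, with 46 positive and 31 negative, and groups did not overlap for 10 of 77 (13%, against 23.1% of all genes). The 61 SNORA genes had 32 positive and 29 negative differences (median 0.007), and the 16 SCARNA genes 14 positive and 2 negative (median 0.045). SNORA51 came closest, at an adjusted p of 0.0519. The shift of these 77 genes and that of the C/D genes were not tested against each other. Of the 6 proteins of H/ACA particles, 0 were called, with 1 at an unadjusted p under 0.05 (SHQ1).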

How the data were processed

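The authors deposited log2 expression levels for 6 arrays, and the submitters' processing notes name RMA, which corrects background, normalises arrays to a common distribution and summarises each probe set, called a probe here. For RMA's settings and the annotation version, nothing is stated by the labels or notes. Values ran from 3.21 to 14.51 with 2 decimals. Precision is limited by having 3 arrays per group. The RNeasy Mini column named in the labels is designed for RNA longer than most C/D snoRNAs (60 to 205 bases here), and its part in the levels was not tested.

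Of 33297 probes, 19460 had 1 symbol, 1754 several and 12083 were not listed in the annotation. The brightest probe stood for a gene, leaving 18417 genes, none removed for low level. All 115 members matched RefSeq (GRCh38.p14, used for names and neighbours). The containing gene was the shortest protein-coding or noncoding gene spanning the member, without regard to strand. It equalled the host given by a list from general knowledge for 50 of 50 members. Differences were fitted with limma 3.58.1 in R 4.3.3 (lmFit, eBayes, two-sided) and tested on simulated data. Levels of different probes served to rank brightness and to place members against the floor. Probes differ in affinity, so such levels are not compared as amounts of RNA. An exact permutation of 3 against 3 cannot give a p under 0.1.

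The members and lists were chosen with earlier results of these data known. Named are ETS2; called members; the 10 most positive and 10 most negative differences above the floor; the 10 brightest; the brightest of families of 3 or more; U3, U8 and U13; core proteins; and called factors or hosts. Members of 1 host gene are not reported here by name. SNORD116-21, SNORD61, SNORD28 and members named beside a host were added after their values were seen, as were the grouping by containing gene and the promoters shown. Alternatives were the replicate block, 3 array scalings, a filter on dim genes, 2 treatments of probes, 2 variance models, array weights and each array left out.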

Additional observations from a re-analysis of the deposited data

Results flagged for a closer look

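Outside the comparison of single-symbol probes, 49 probes list a C/D snoRNA beside another symbol and hold 37 distinct readings. Among these, the reading shared by 2 probes listed for both SNORD109A and SNORD109B, paired copies in the imprinted region of chromosome 15, was called when all probes were tested, with a difference of -0.46 (adjusted p = 0.0155). It read 6.11, 6.10 and 5.99 after ETS2 siRNA and 6.54, 6.56 and 6.48 in control cells, without overlap and below the floor of 6.67. Of all probes, 1.2% were called, 0.688% lower.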

How the results depend on the processing

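The median difference over the C/D genes kept its sign under the alternatives run, from -0.06 to -0.02, and the ETS2 difference stayed called, from -1.09 to -1.005. The count of called C/D genes, 3, was 1 with the replicate block, 1 with every probe tested on its own, 4 among genes above the floor, 6 with an intensity trend and 5 with array weights, of which 1, SNORD61, was higher. The calls under the other alternatives were lower. Leaving out 1 array gave 0 to 2. Of SNORD44, SNORD78 and SNORD79, 1 stayed called with the block and 1 with every probe, SNORD78 both times, and 0 to 2 with 1 array left out. The call without ETS2 siRNA replicate 2 was SNORD77 (adjusted p = 0.0246). The calls over all genes, 904, were 1397 among genes above the floor, 322 of these genes with every probe tested, 1963 with the trend, 1480 with weights and 213 to 735 with 1 array left out. The 2 called factors were 1 with the block, 0 with every probe and 0 to 1 with 1 array left out. The 1 called host was 2 with the trend and 0 to 1 with 1 array left out. Calls among SNORA and SCARNA genes, 0, were 3 above the floor, 2 with the trend and 3 with weights. Of 558 alternative values of 35 named genes, 30 lost a call, 5 gained one and none changed sign across a call. Deviations of same-numbered arrays correlated at 0.18, 0.18 and 0.04. Differently numbered arrays were not set beside them, so whether replicate numbers pair the arrays was not settled. For the changed counts the cause was not tested. Arrays limit the precision by their number, and 51 of the 115 members lay below the floor in both groups, where small differences are not well measured.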
